A study of Mus musculus with 21 samples.

Results

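Mos, Map2k1, Mapk3 and Fbxo43 are genes of the cytostatic activity that holds the mammalian egg at metaphase of meiosis II. Fbxo5 was listed with them as the gene of an inhibitor related to that of Fbxo43, which acts earlier in the cell cycle. The listed genes, called the arrest genes below, are 5 of the 54232 genes counted. All 5 were found by their Ensembl identifiers, had counts in all 21 libraries and passed the filter on low counts.

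The study lowered the dose of *Kif11*, which encodes a spindle kinesin, in mouse oocytes, and each library was made from the poly(A) RNA of 3 oocytes. The oocytes were fully grown, at the germinal vesicle stage, and came from females of 3 to 4 months on a C57BL/6 background, collected 48 h after a hormone injection. They had thus not yet resumed meiosis, so the levels below are those of mRNA stored before the arrest takes place. The control carried 1 wild-type and 1 floxed *Kif11* allele without Cre (wt/fl, labelled WtFlox, 4 libraries). The other groups were wt/fl with Spo11-Cre (5 libraries), the floxed allele over a constitutive deletion (fl/del, labelled FloxDel, 4 libraries), fl/del with Spo11-Cre (4 libraries), and 2 floxed alleles (fl/fl, labelled FloxFlox) with Gdf9-Cre (2 libraries) or Zp3-Cre (2 libraries). Every animal carried at least 1 floxed allele, the controls included. Spo11-Cre is driven by a promoter active from early meiotic prophase, and Gdf9-Cre and Zp3-Cre by promoters of oocyte genes. Both fl/fl groups differ from the control in the second allele and in the driver at the same time, and the methods describe the 17 libraries of the Spo11-Cre background, so genotype, driver and library set cannot be told apart there. In the library names of the Spo11-Cre background, a letter A marks every library without Cre and B or C every library with it. What the letter stands for is not stated, so Spo11-Cre and the letter cannot be told apart. A mouse gave 1 or 2 libraries, so p-values measure the spread between libraries, some of which share a mouse.

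MOS is a kinase made by the oocyte that phosphorylates the kinase MEK1, the product of Map2k1. MEK1 in turn activates ERK kinases, such as ERK1, the product of Mapk3, which work through RSK kinases and other substrates on spindle and arrest. EMI2, the product of Fbxo43, inhibits the anaphase-promoting complex (APC/C), the ubiquitin ligase that destroys cyclin B and securin, and its destruction after the calcium signal of fertilization releases the egg. EMI1, the product of Fbxo5, is a related inhibitor of the same complex that acts earlier in the cell cycle. Mos mRNA is a textbook case of a stored message that is translated on resumption of meiosis, when its poly(A) tail is lengthened.

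In the GRCm38 genome with the GENCODE M21 annotation, Mos lies on chromosome 4, from 3870657 to 3872105 on the minus strand, and is a single exon. Map2k1 lies on chromosome 9, from 64185770 to 64253631 (minus strand, 11 exons), and Mapk3 on chromosome 7, from 126759601 to 126765819 (plus strand, 9 exons). Fbxo43 lies on chromosome 15, from 36150060 to 36164884 (minus strand, 5 exons), and Fbxo5 on chromosome 10, from 5799160 to 5805600 (minus strand, 5 exons). Exons of none of the 5 overlapped those of another gene. The 3′ ends are shown because these libraries were primed on the poly(A) tail and because stored mRNAs such as Mos are regulated at that end. Of the last 100 bases of each transcript, the 30 bases around the poly(A) signal are printed 5′ to 3′ on the transcript strand, with the letters of the signal (AATAAA or ATTAAA) in capitals. They lie in the 3′ untranslated region at chr4:3870667-3870696 (Mos), chr9:64185779-64185808 (Map2k1), chr15:36150074-36150103 (Fbxo43) and chr10:5799165-5799194 (Fbxo5), all on the minus strand.
Mos: tagggcatatttttaggaAATAAAgttacc
Map2k1: aaaatactatcaagttaaAATAAAagggac
Fbxo43: ttaaaATTAAAactaataATTAAAtttaaa
Fbxo5: ataattttgtttagttaaAATAAAtttaga
Mos, Map2k1 and Fbxo5 thus hold the common signal, and Fbxo43 holds 2 copies of the variant. Map2k1 and Fbxo5 each hold a second AATAAA in the last 100 bases, starting 43 and 50 bases from the end and not printed whole. In the same stretch of all 19859 genes with such a region, AATAAA was found in 64.5% and ATTAAA in 20.4%, and neither was found for Mapk3. The letters of the cytoplasmic polyadenylation element, the signal for tail lengthening, were also searched on the transcript strand. One or the other of its forms TTTTAT and TTTTAAT was present in 17.8% of genes (TTTTAT in 13.8%), and among the 5 genes TTTTAT stood in the last 100 bases of Fbxo5 alone. Further from the end, TTTTAT also stood in the 3′ untranslated region of Fbxo43, the nearest starting 103 bases from the end. Map2k1 held TTTTAT 426 bases and TTTTAAT 765 bases from the end. Neither form was found in the 3′ untranslated regions of Mos (126 bases) and Mapk3 (612 bases). The share of all genes was computed for the last 100 bases only. A match is a description of letters, not of a working site, and the absence of these forms says nothing of other elements in the transcript.

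Libraries held 7205010 to 18454549 counts, the lowest being fl/del replicate 3. Levels are given as CPM, counts scaled to a library total of 1000000. *Kif11*, the targeted gene, was highest in the control, with a mean of 34.5 ± 8.46 CPM (SD, n = 4), against means of 24.6 ± 5.04 CPM for wt/fl Spo11-Cre (n = 5), 11.9 ± 3.06 CPM for fl/del (n = 4) and 1.78 ± 0.68 CPM for fl/del Spo11-Cre (n = 4). The 2 wt/fl groups overlapped for it. Both fl/fl groups were between the last 2 of these means, at 4.27 to 7.95 CPM over their 4 libraries. All 12 oocyte markers had counts, with a summed level of 23773 to 30586 CPM per library. The 18 follicle cell markers summed to 283 to 351 CPM, of which Esr2 alone gave 186 to 249 CPM. Cyp19a1 gave 46.5 to 80.5 CPM and Nr5a2 21.1 to 44.8 CPM, both with counts in all 21 libraries. Every other follicle cell marker was at 5.39 CPM or less in each library, and all of these but Fshr and Star had a median of 0. Foxl2, Ptx3 and Tnfaip6 were at 0 in all 21 libraries.

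Mos was the most abundant of the 5 mRNAs, and the order of the others was nearly the same in every library. Levels of different genes are compared here as TPM (transcripts per 1000000), which are scaled by gene length. Over the 21 libraries, Mos stood at 1397 to 1852 TPM (median 1650.1), Mapk3 at 237 to 398 TPM (median 312), Fbxo5 at 197 to 301 TPM (median 249.9), Map2k1 at 91.0 to 167 TPM (median 126) and Fbxo43 at 31.3 to 71.2 TPM (median 45.2). Only the ranges of Mapk3 and Fbxo5 overlapped. The order Mos, Mapk3, Fbxo5, Map2k1, Fbxo43 held in 19 of 21 libraries, and in the other 2 Fbxo5 stood above Mapk3. Mos ranked between 61 and 94 among all genes of a library by TPM, Mapk3 between 394 and 748, Fbxo5 between 565 and 889, Map2k1 between 1038 and 1790, and Fbxo43 between 2277 and 3697. Oocytes at this stage thus held all 5 messages, with that of the top kinase far above those of the APC/C inhibitors in TPM. The libraries were primed on the poly(A) tail and amplified. How well each transcript was captured was not measured, so TPM of different genes may not give their true proportions.

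Map2k1 was more abundant than its close relative. Map2k2, which encodes MEK2, stood at 10.4 to 21.6 TPM, and Map2k1 was 5.49 to 9.94 times higher (median 7.75), above it in 21 of 21 libraries. Between the EMI genes the later-acting one was the lower: the ratio of Fbxo43 to Fbxo5 was 0.136 to 0.272 (median 0.181), below 1 in all 21 libraries. These ratios of TPM kept their side of 1 in every genotype.

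**Figure D1:**
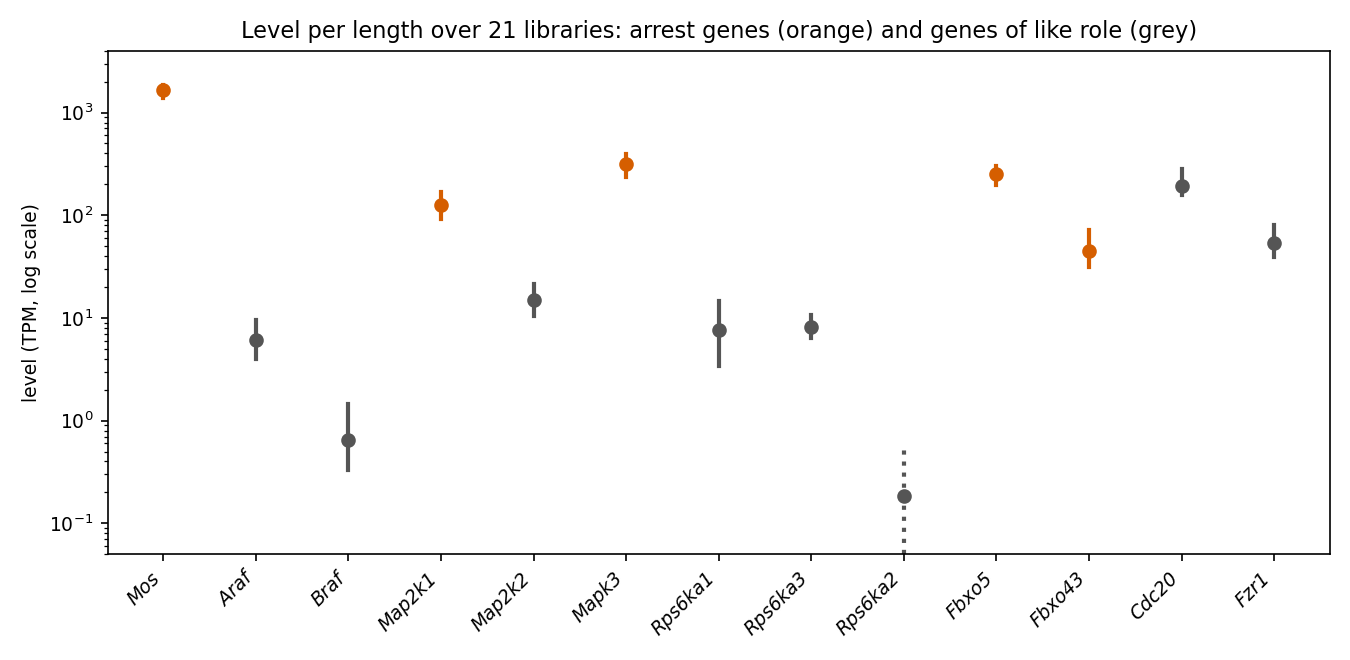
Level per length (TPM, log scale) of the 5 arrest genes (orange) and of 8 genes of their pathways (grey), which include the APC/C activator genes Cdc20 and Fzr1. Points are the median of 21 libraries and lines run from the lowest to the highest library. Mos stands at 1397 to 1852 TPM and its range overlaps no other gene shown, while Map2k1 stands above Map2k2. The dotted line of Rps6ka2 reaches down to a library at 0.

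Mos, the kinase at the head of the cascade, stood within a narrow band in all genotypes. It was measured at 1040.3, 941, 1052 and 1069 CPM in wt/fl, at 1109, 1037, 879, 935 and 1032 CPM in wt/fl Spo11-Cre, at 996, 964, 968 and 927 CPM in fl/del and at 861, 898, 834 and 1004 CPM in fl/del Spo11-Cre. With Gdf9-Cre 885 and 1051 CPM were measured, and with Zp3-Cre 1098 and 963 CPM. The highest library was 1.33 times the lowest, and the coefficient of variation (SD over mean) over the 21 libraries was 8.16%. Every pair of groups overlapped, with the lowest levels in fl/del Spo11-Cre, where the mean was 87.7% ± 7.26 (SD, n = 4) of that in wt/fl.

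Map2k1, encoding MEK1, was the member with the clearest difference between groups. Its level was 194, 195, 177 and 228 CPM in wt/fl, and 160.4, 146, 149, 129 and 136 CPM in wt/fl Spo11-Cre. All 5 wt/fl libraries with Spo11-Cre were below all 4 without it. In fl/del it was 179.6, 155, 131 and 187 CPM, and in fl/del Spo11-Cre 176, 139, 167 and 183 CPM, so that both groups reached into the range of both wt/fl groups. The fl/fl libraries stood at 209 and 147 CPM with Gdf9-Cre, the widest gap within a pair of libraries for this gene, and at 229 and 199 CPM with Zp3-Cre. The mean of wt/fl Spo11-Cre was 72.6% ± 6.11 (SD, n = 5) of that in wt/fl, against 82.4% ± 12.8 (n = 4) in fl/del and 83.8% ± 9.61 (n = 4) in fl/del Spo11-Cre.

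Mapk3, encoding ERK1, showed a like pattern with more overlap. It stood at 289, 340.1, 254 and 362 CPM in wt/fl and at 221, 238, 282, 241 and 242 CPM in wt/fl Spo11-Cre. Of the 5 libraries with Spo11-Cre, 4 lay below every wt/fl library and replicate 3 did not. In fl/del the level was 260.3, 292, 278 and 297 CPM, in fl/del Spo11-Cre 309.6, 250.0, 292 and 292 CPM, and in the fl/fl libraries 285 and 284 CPM with Gdf9-Cre and 329 and 309 CPM with Zp3-Cre. The mean of wt/fl Spo11-Cre was 78.6% of that in wt/fl, where the libraries themselves spread from 254 to 362 CPM.

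The 2 APC/C inhibitors differed in how much they varied. Fbxo43, the EMI2 gene, was measured at 69.6, 86.0, 62.9 and 108 CPM in wt/fl, at 69.4, 75.7, 70.7, 65.2 and 56.8 CPM in wt/fl Spo11-Cre, at 79.8, 75.4, 80.8 and 69.8 CPM in fl/del and at 70.6, 54.3, 75.2 and 80.8 CPM in fl/del Spo11-Cre. Its fl/fl levels were 105 and 81.4 CPM with Gdf9-Cre and 88.4 and 114 CPM with Zp3-Cre, which reached the highest value of the series. With a coefficient of variation of 20.05% it was the most variable of the 5 genes, and also the lowest. Fbxo5, the EMI1 gene, was measured at 188, 218, 187 and 213 CPM in wt/fl, at 212, 179, 208, 234 and 207 CPM in wt/fl Spo11-Cre, at 204, 214, 235 and 247 CPM in fl/del and at 178, 169, 206 and 221 CPM in fl/del Spo11-Cre. With Gdf9-Cre the fl/fl libraries gave 220.2 and 192 CPM, and with Zp3-Cre 182 and 208 CPM, within the range of the other groups. Its coefficient of variation was 9.94% and all groups overlapped.

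**Figure D2:**
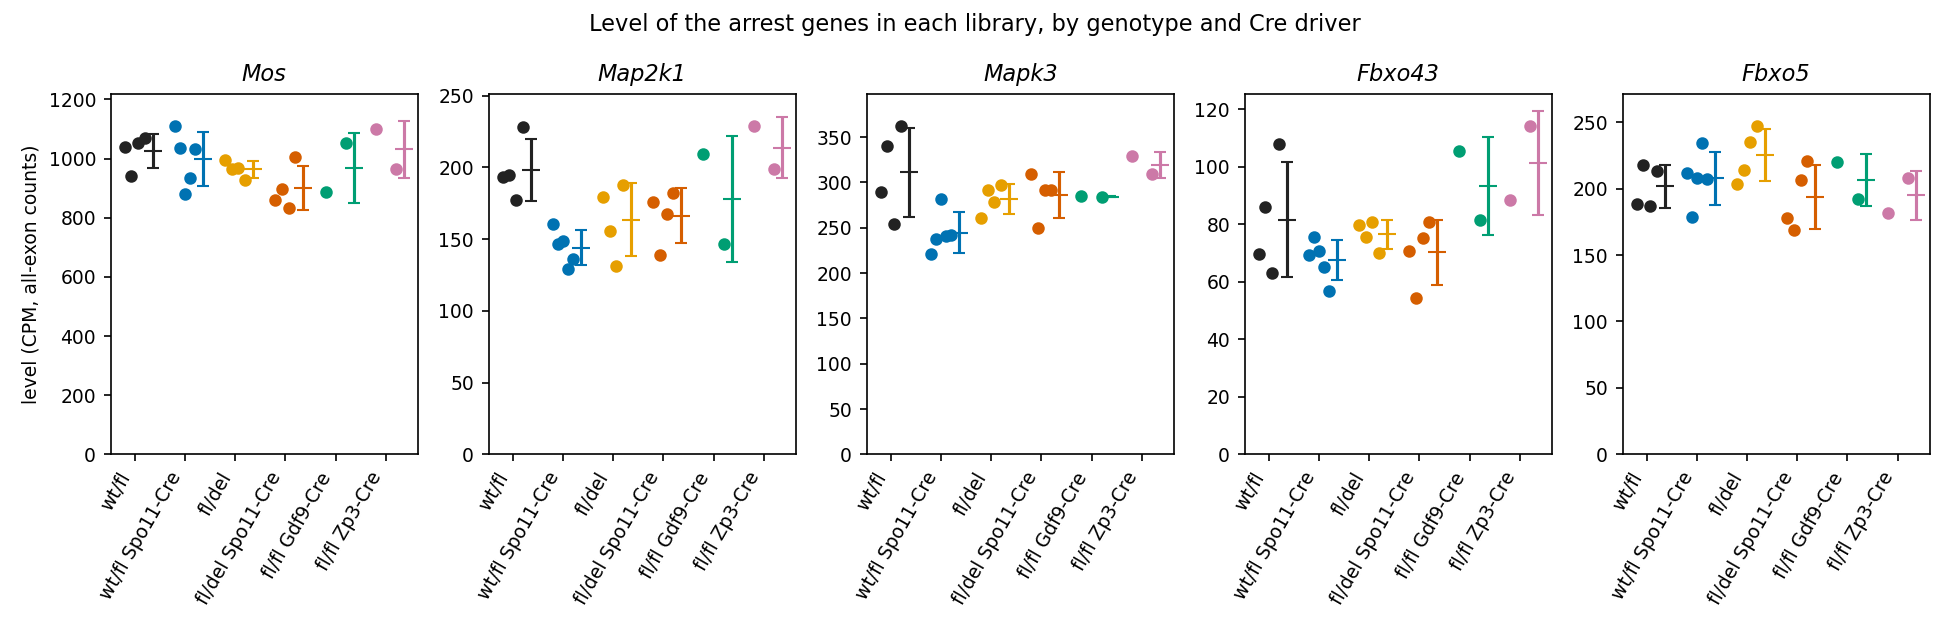
Level of each arrest gene (CPM, from 0) in each of 21 libraries, in 6 groups by genotype and Cre driver; points are libraries and the bar beside them is the group mean with its SD. The 5 wt/fl Spo11-Cre libraries of Map2k1 (129 to 160.4 CPM) lie below the 4 wt/fl libraries (177 to 228 CPM), and all groups overlap for Mos and Fbxo5.

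Spo11-Cre on a wt/fl background removes the floxed allele and leaves the wild-type one, and the comparison with wt/fl asks which other mRNAs differ in such oocytes. The letter of the library name also differs between the groups with and without Spo11-Cre. In this comparison 2 of the 5 genes passed the test, both lower with Spo11-Cre, where 2.19% of 22383 genes tested passed in either direction. The log2 fold change of Map2k1 was -0.44 (SE 0.097, edgeR adjusted p = 0.00646), a fold of 0.738. For Mapk3 it was -0.32 (SE 0.091, edgeR adjusted p = 0.0411), a fold of 0.800. Fbxo43 stood at -0.25 (95% interval -0.49 to -0.01), Mos at -0.02 (-0.16 to 0.13) and Fbxo5 at 0.07 (-0.11 to 0.24), and these 3 did not pass, the lowest edgeR adjusted p being that of Fbxo43 at 0.313. The median of the 5 genes was -0.25, against 0.03 over all genes tested. Map2k1 was the single member whose CPM ranges did not overlap between the 2 groups, as was the case for 4.95% of genes.

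Neither call held in all the ways the counts were treated. That of Map2k1 was lost without wt/fl replicate 4, its highest control library (log2 fold change -0.36, adjusted p = 0.0628), and by limma on the deposited TPM (-0.50, adjusted p = 0.0805). That of Mapk3 was lost without wt/fl replicate 2 (-0.28, adjusted p = 0.193) or wt/fl replicate 4 (-0.24, adjusted p = 0.256), the 2 highest control libraries for it, and also without wt/fl Spo11-Cre replicates 1, 2, 4 or 5 in turn (adjusted p from 0.0657 to 0.0994). It was lost as well by limma on TPM (adjusted p = 0.111), with all 21 libraries in the fit (0.100) and with libraries of a shared name prefix summed (0.0695).

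The same control libraries stood apart in a measure that sets the levels of GC-rich genes against those of GC-poor genes. The measure was taken over 8515 genes as the median deviation from their means of those in the upper quartile of GC content, less that of those in the lower quartile, on the log2 scale. It was -0.03 to 0.18 in wt/fl, highest in replicates 2 (0.179) and 4 (0.173), and -0.08 to -0.01 in wt/fl Spo11-Cre. Transcripts of Mapk3 have a GC content of 57.6%, above that of 93.1% of those genes, against 51.2% for Map2k1, 53.5% for Mos, 45.1% for Fbxo5 and 42.6% for Fbxo43. Over the 17 libraries without fl/fl, which differ in depth and in this measure (-0.11 to 0.18), Pearson's r of the level with this measure was 0.71 for Map2k1, 0.76 for Mapk3, 0.62 for Fbxo43, 0.17 for Fbxo5 and 0.05 for Mos. With the trend on GC content taken out of each library, a fit added after the data were seen, Map2k1 kept its call (log2 fold change -0.37, adjusted p = 0.0280) and Mapk3 did not (-0.19, adjusted p = 0.315). Of the 12 oocyte markers, Nobox and Zp1 were lower and Ooep higher in the same comparison by edgeR, and the summed follicle cell markers were 296 to 351 CPM in wt/fl and 284 to 344 CPM in wt/fl Spo11-Cre. These sums came mostly from Esr2, Cyp19a1 and Nr5a2, with most other markers of the list at or near 0. The part of either list in the 2 calls was not tested, and in bulk RNA a smaller share of a cell type cannot be told from less RNA per cell.

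**Figure D3:**
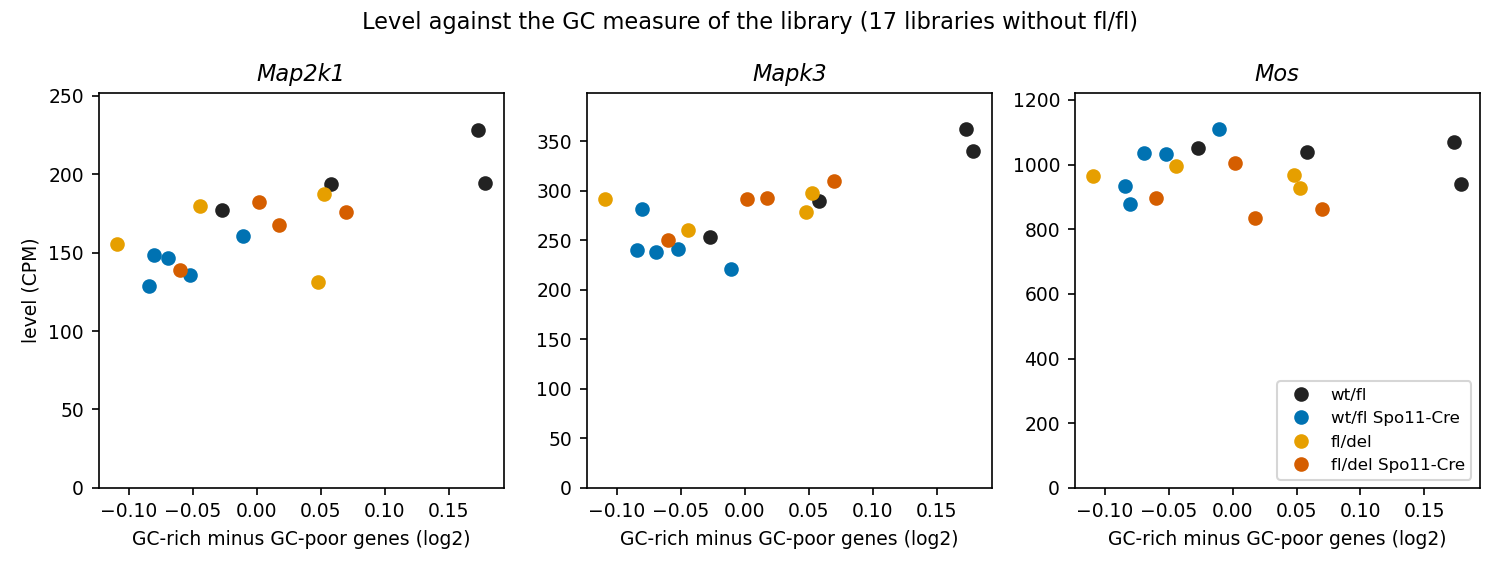
Level (CPM, from 0) of Map2k1, Mapk3 and Mos against the GC measure of the library (log2 difference between GC-rich and GC-poor genes) in the 17 libraries without fl/fl, coloured by group. The wt/fl replicates 2 and 4 stand at the right, at 0.179 and 0.173, with the 2 highest Mapk3 levels, while Mos has no such slope.

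The partners of these genes are given as 3 lists. In wt/fl Spo11-Cre against wt/fl they are read against the 2.19% of all genes called (297 lower and 194 higher), and 3 of the 12 oocyte markers were called there. Of 14 genes of the MAPK cascade, 5 fell and none rose in wt/fl Spo11-Cre against wt/fl, with a median log2 fold change of -0.39 over the list. The largest were those of Ksr1, a scaffold of MEK and ERK kinases (-1.09, edgeR adjusted p = 0.0174), Rps6ka1, which encodes the ERK target RSK1 (-0.88, adjusted p = 0.0384), and the phosphatase gene Dusp1 (-0.59, adjusted p = 0.00604). Ksr1 and Rps6ka1 are low messages, at 8.75 to 15.9 and 11.5 to 25.1 CPM in wt/fl. Map2k2, the relative of Map2k1, stood at -0.34 (edgeR adjusted p = 0.243) and did not pass. The 2 most abundant genes of the list in wt/fl, Cdk2ap2 with a mean of 948 TPM and Mapk1ip1 with 635 TPM, both of which encode ERK substrates or partners of the oocyte, were not called.

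Of 18 genes of the APC/C and its activators, 4 fell and none rose in the same comparison, with a median log2 fold change of -0.07. They included the subunit gene Anapc2 (-0.58, edgeR adjusted p = 0.0337) and the genes of both activators, Fzr1 (-0.54, adjusted p = 0.00621) and Cdc20 (-0.38, adjusted p = 0.0212). Cdc20 and the E2 enzyme gene Ube2c were the most abundant of the list in wt/fl, at 233 ± 33.4 and 213 ± 31.2 TPM (SD, n = 4). Of 15 tested genes that act on the EMI proteins, of 16 listed, 2 fell and 1 rose, with a median of 0.04. Plk1, whose kinase primes EMI proteins for destruction, fell (-0.48, edgeR adjusted p = 0.00251), as did Btrc, the substrate receptor that binds them (-0.31, adjusted p = 0.0276). Cul1, the cullin of the same ligase, rose by 0.72 (adjusted p = 2.7e-10), while Skp1a, the most abundant of the list at 3282 TPM in wt/fl, was not called.

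These counts also moved with the treatment of the data. Without wt/fl replicate 2, 0 of the 14 MAPK cascade genes and 0 of the 18 APC/C genes passed by edgeR, as with limma on TPM using all libraries. With the offset for GC content, 3 and 1 passed. Over 22 alternative treatments of this comparison, the call was lost in 10 for Anapc2, 9 for Rps6ka1, 7 for Btrc and 5 for Cdc20. It was lost in 3 each for Ksr1, Dusp1 and Fzr1, in 1 for Plk1 and in 0 for Cul1.

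Cul1 passed in more comparisons than any other listed partner, 4 of 10. It was measured at 1228, 1418, 1295 and 1247 CPM in wt/fl and at 1421, 1408, 1386 and 1374 CPM in fl/del, the groups without Cre. With Spo11-Cre it was 2147, 2057, 2199, 2082 and 2009.9 CPM in wt/fl and 1973, 1944, 2117 and 1903 CPM in fl/del. All 9 libraries with Spo11-Cre stood above all 8 of these without it, and above the 4 fl/fl libraries, which stood at 952 to 1356 CPM. The libraries with Spo11-Cre are also those named with the letter B or C. By edgeR it was also called in fl/del Spo11-Cre against wt/fl (log2 fold change 0.61) and against fl/del (0.49), and in fl/del against wt/fl Spo11-Cre (-0.59).

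The constitutive deletion without Cre asks the same question of the other heterozygote. In fl/del against wt/fl none of the 5 genes passed by edgeR, where 0.0223% of genes did. Map2k1 was at -0.26 (95% interval -0.46 to -0.06, unadjusted p = 0.0138, edgeR adjusted p = 0.554), the 1 member with an unadjusted p under 0.05, and Fbxo5 stood at 0.17 (-0.01 to 0.36). Of the listed partners, 0 of 14, 0 of 18 and 0 of 15 tested passed by edgeR, as by DESeq2 and limma, and 3, 3 and 2 of them had an unadjusted p under 0.05. Among all genes tested, 8.52% had an unadjusted p under 0.05 by edgeR in this comparison.

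Oocytes with neither allele, fl/del Spo11-Cre, were set against 3 groups, and none of the 5 genes passed in any of them. Against wt/fl, where 0.197% of genes passed by edgeR, Mos was at -0.19 (95% interval -0.35 to -0.04, edgeR adjusted p = 0.401) and Map2k1 at -0.26 (-0.46 to -0.06, adjusted p = 0.382), both with an unadjusted p under 0.05. Against fl/del, where 0.241% passed, Fbxo5 was at -0.24 (-0.42 to -0.05, edgeR adjusted p = 0.534), again under 0.05 unadjusted, while Map2k1 and Mapk3 were both at 0.00, with intervals of -0.20 to 0.20 and -0.19 to 0.19. Against wt/fl Spo11-Cre, where 0.0357% passed, Mos was at -0.18 and Mapk3 at 0.20 (edgeR adjusted p = 0.702 for each), the 2 members under 0.05 unadjusted. Both heterozygotes were also compared with each other: in fl/del against wt/fl Spo11-Cre, where 0.201% passed, Mapk3 was at 0.20 (edgeR adjusted p = 0.526), with 1 member under 0.05 unadjusted and none called. In the comparisons of this paragraph, 7.11% to 10.4% of all genes were under 0.05 unadjusted by edgeR.

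Whether Spo11-Cre acted differently on the 2 backgrounds was tested as an interaction, in which 0.103% of genes passed by edgeR. The difference of differences was 0.44 for Map2k1 (95% interval 0.16 to 0.72, unadjusted p = 0.00298, edgeR adjusted p = 0.240), 0.32 for Mapk3 (adjusted p = 0.359) and -0.30 for Fbxo5 (adjusted p = 0.388). These 3 had an unadjusted p under 0.05, as had 10.3% of all genes by edgeR. None of the 5 was called, so that a difference between the backgrounds in the Spo11-Cre effect was not shown for any of them. The 7 comparisons of the Spo11-Cre background share libraries and are not independent of each other.

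In the fl/fl oocytes both alleles are deleted by oocyte-specific drivers. None of the 5 genes passed by edgeR in fl/fl Gdf9-Cre against wt/fl (1.48% of 23225 genes passed), in fl/fl Zp3-Cre against wt/fl (2.27%) or between the fl/fl groups (0.891%). None had an unadjusted p under 0.05 there, which 7.14% to 13.1% of all genes had by edgeR. With 2 libraries a group the intervals were wide, such as -0.51 to 0.05 for Map2k1 with Gdf9-Cre and -0.12 to 0.54 for Fbxo43 with Zp3-Cre. Levels in CPM are scaled by library totals and the tests by TMM factors, which lowered the median gene of fl/fl Zp3-Cre against wt/fl by 0.10 on the log2 scale relative to totals. Mos was therefore at 100.5% of wt/fl in CPM and at -0.10 in the test. Among the partners, Mapk1ip1 (-0.48 and -0.51) and the E2 enzyme gene Ube2s (-0.81 and -0.54) fell and Ppp3r1, a calcineurin subunit gene, rose (0.82 and 0.93) by edgeR with Gdf9-Cre and with Zp3-Cre, in comparisons that share their controls. The APC/C subunit gene Cdc27 fell with Zp3-Cre (-0.98). Anapc5 passed with Gdf9-Cre (-0.58), but its libraries there were at 115 and 73.8 CPM, and without replicate 2 it was at -0.29 (adjusted p = 0.790). Btrc passed with Zp3-Cre (-0.49), where its libraries were at 295 and 477 CPM, and without replicate 1 it was at -0.15 (adjusted p = 0.880). Over 17 alternatives the call was lost in 11 for Anapc5 and in 10 for Btrc. Cdc27 also differed between the drivers, at 385 and 347 CPM with Gdf9-Cre and 194 and 195 CPM with Zp3-Cre (log2 fold change 0.95, edgeR adjusted p = 7.0e-05).

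Over all 10 comparisons, 2 of 50 tests of the 5 genes passed by edgeR and 13 had an unadjusted p under 0.05. DESeq2 called the same 2 and no other, and limma on TPM called none. The share of all genes with an unadjusted p under 0.05 by edgeR was itself 7.11% to 15%, depending on the comparison. In CPM, the ranges of all 5 genes overlapped in the other pairs of the Spo11-Cre background. The share of all genes whose ranges did not was 2.99% with fl/del and 4.18% with fl/del Spo11-Cre, each set against the control. Between fl/del with and without Spo11-Cre it was 3.65%. With wt/fl Spo11-Cre as the reference it was 1.85% for the group with neither allele and 2.84% for fl/del. All 5 also overlapped in fl/fl Gdf9-Cre (18% of genes did not) and fl/fl Zp3-Cre (16.8%) against wt/fl. Between Gdf9-Cre and Zp3-Cre, where 27.7% of genes did not overlap with 2 libraries against 2, 1 of the 5 did not, Mapk3.

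**Figure D4:**
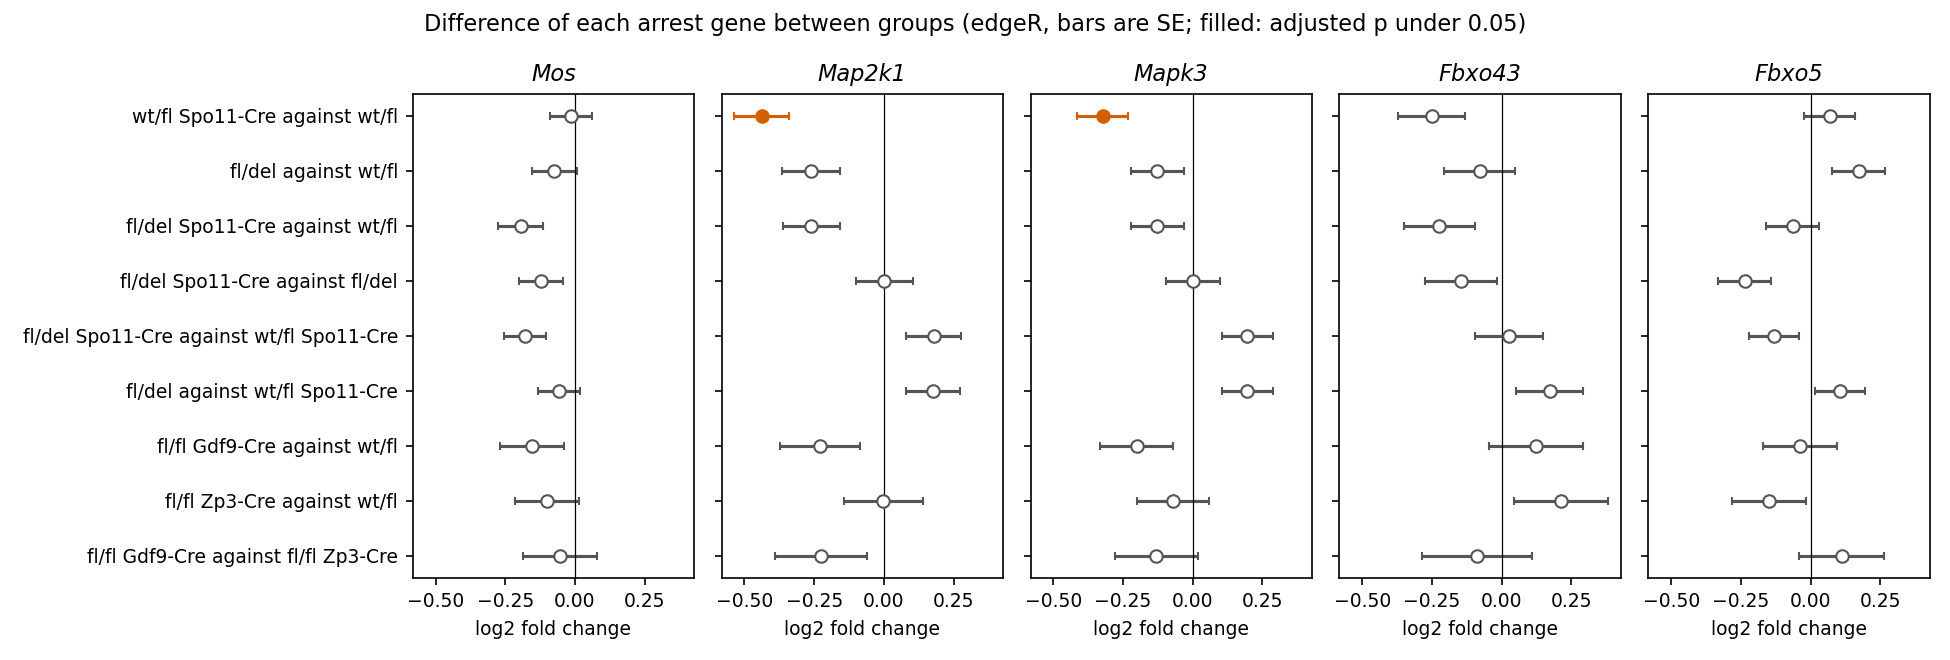
Log2 fold change of each arrest gene (edgeR, bars are the SE) in 9 comparisons of groups, with filled points for an adjusted p under 0.05. The 2 filled points are Map2k1 at -0.44 and Mapk3 at -0.32 in wt/fl Spo11-Cre against wt/fl; open points did not pass.

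Across the 17 libraries without fl/fl, Map2k1, Mapk3 and Fbxo43 varied together, as a description of libraries that also differ in the GC measure. Pearson's r of log2(CPM + 1) was 0.70 between Map2k1 and Mapk3, 0.69 between Mapk3 and Fbxo43 and 0.61 between Map2k1 and Fbxo43. Mos stood between -0.27 and 0.21 with the 4 others, and Fbxo5 between 0.01 and 0.35. Of 7718 genes with a mean of at least 10 CPM, those most like Map2k1 were Kif20a (r = 0.94), a kinesin gene, and Tspan14 (0.93). Those most like Mapk3 were Stk32b (0.95) and Mtmr14 (0.90), and those most like Fbxo43 were Tmem108 (0.88) and Rsrp1 (0.84). Fbxo5 was most like Kif2c, a microtubule-depolymerizing kinesin gene (0.83), and BC055324 (0.77), and Mos was most like 1700066M21Rik and Rhbdf1 (0.79 each). Over all 21 libraries these values stayed above 0.85 for Tspan14, Stk32b and Mtmr14, and fell to 0.38 for Kif20a and 0.43 for Tmem108.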

How the data were processed

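Poly(A) RNA was reverse-transcribed and amplified as full-length cDNA and sequenced as 150 bp read pairs. The authors aligned reads to GRCm38 (HISAT2 2.2.1) and made whole-number gene counts from unique alignments (featureCounts 2.0.3). The deposited counts over all exons were 1.95 times (median) those of a second deposited table of the same libraries, so levels were computed within a table as CPM. The authors' TPM were used for levels between genes; their lengths matched exon unions within 2% for 94.6% of 6311 genes.

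Models used edgeR 4.0.16 in R 4.3.3 (TMM, quasi-likelihood, genes counted in 3 or more libraries, Benjamini-Hochberg over all genes, threshold 0.05), in 1 fit of 17 libraries, or of 21 for the fl/fl groups. The fit was tested on simulated data, with independent libraries and changes larger than those called for Map2k1 and Mapk3. That test does not show how well changes of their size are found, or the effect of shared mice. Alternatives were DESeq2 1.42.0, limma 3.58.1 on log2(TPM + 1), other scalings, filters, tables and samples, libraries of a shared name prefix summed, the replicate block and each library left out. The GC content offset was chosen after seeing the data.

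The members and lists were chosen with earlier results of these data known. Named from the lists were the 2 most abundant genes in wt/fl and up to 3 called per comparison, by size; Map2k2 was added after its values were seen. Some items are not reported here. Likeness was Pearson's r of log2(CPM + 1). Protein sequences were not used here.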

Additional observations from a re-analysis of the deposited data

Results flagged for a closer look

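Among 28 groups of 4 or 5 libraries tested for a value far from the rest, 1 was flagged, the number chance gives being about 1 in 20 groups. The total count of fl/del replicate 3 was 7205010, apart from the other fl/del libraries. Its levels of the 5 genes were within the range of the other libraries of the series, and none of the 5 was called in fl/del against wt/fl with or without it.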

How the results depend on the processing

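In wt/fl Spo11-Cre against wt/fl, the number of the 5 genes called was 2, and it was 1 (Map2k1) with all 21 libraries in the fit, 0 by limma on TPM, 1 (Map2k1) with libraries of a shared name prefix summed and 1 (Map2k1) with the GC content offset, which was chosen after seeing the data. Leaving out each library in turn gave 0 to 2, with 0 without wt/fl replicate 4. Under these settings and 22 alternatives in all, the log2 fold change of Map2k1 was -0.50 to -0.36 (adjusted p 0.000797 to 0.0805) and that of Mapk3 -0.40 to -0.19 (0.0089 to 0.315); the cause of the lost calls was not tested. In the other 9 comparisons the number called was 0 under every alternative run. Over 1035 alternative fits of the 50 pairs of gene and comparison, 958 kept direction and call, 12 lost a call and 65 turned the sign. Only 2 of the 50 pairs had a call to lose. It was lost in 2 of 22 alternatives for Map2k1 and in 10 of 22 for Mapk3. The turned signs fell on 18 pairs, of which 0 had an unadjusted p under 0.05, and whose log2 fold change was at most 0.23 in size. Of 310 alternative values of group means as percent of wt/fl, 14 moved by more than the SD between libraries.

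Replicate numbers were tested as a block. Deviations of same-numbered libraries of different groups had r of -0.24 to 0.19 over 42 pairs (median -0.002), with 4 above 0.1, so the libraries share only a number. With the replicate block the number of the 5 genes called was 2 in wt/fl Spo11-Cre against wt/fl and 0 in the other comparisons.

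Counts of all genes called were less stable, and with them the background. They were 491 in wt/fl Spo11-Cre against wt/fl (79 to 931 under alternatives that kept all libraries), 5 (0 to 96) in fl/del against wt/fl, 44 (17 to 230) in fl/del Spo11-Cre against wt/fl, 54 (18 to 143) against fl/del and 8 (1 to 39) against wt/fl Spo11-Cre. They were 45 (16 to 116) in fl/del against wt/fl Spo11-Cre, 23 (0 to 138) for the interaction, 343 (244 to 731) with Gdf9-Cre and 528 (204 to 879) with Zp3-Cre against wt/fl, and 207 (7 to 381) between these. Leaving out a library in turn gave 179 to 575 for the first of these and 133 to 1227 with Zp3-Cre. Leaving out a library of 2 assumes that the lone one varies like the other groups. In wt/fl Spo11-Cre against wt/fl, calls among the lists ranged from 0 to 5 for the MAPK cascade, 0 to 5 for the APC/C and 1 to 4 for the EMI regulators.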
